A study of Homo sapiens with 40 samples.

Results

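The mRNAs described here encode the nuclear-encoded subunits of respiratory complexes II, III, IV and V, together with cytochrome c. They were chosen by gene symbol from the count files. The rule itself uses no measured value, but it was set with earlier results of these data known. All 40 symbols were found among the 55765 symbols counted. Complex II, succinate dehydrogenase, gave 4 mRNAs. Complex III, the cytochrome bc1 complex, gave 9. Complex IV, cytochrome oxidase, gave 11, complex V, the ATP synthase, gave 15, and cytochrome c gave 1. Every one of the 40 passed the filter on low counts in each of the 13 comparisons, so that none is missing from any count.

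These complexes sit in the inner mitochondrial membrane. Complex II feeds electrons from succinate into the chain, complex III passes them to cytochrome c, complex IV hands them to oxygen, and complex V uses the proton gradient to make ATP. Complex II is encoded in the nucleus alone, whereas complexes III to V also need subunits from mitochondrial DNA, so the mRNAs below are made in the nucleus, translated in the cytosol and matched by products of the mitochondrial ribosome. Many of these proteins are small, and their mRNAs accordingly carry short coding regions.

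All 40 libraries came from HEK293, a human embryonic kidney cell line, with no transgene named in the labels. For RNA immunoprecipitation (RIP), cells without siRNA gave total RNA and RNA recovered with antibodies to endogenous eIF4A1, eIF4A2 or DDX6 (IP), 3 libraries in each of these 4 groups. eIF4A1 is the helicase of the cap-binding complex, eIF4A2 its close paralog, and DDX6 a helicase that works with the Ccr4-Not deadenylase. For the sucrose gradients, cells received control siRNA or siRNA to CNOT1, the Ccr4-Not scaffold, and input RNA, subpolysomal fractions 1 to 5 and polysomal fractions 6 to 11 were sequenced, 4 libraries in each of 6 groups. For the last experiment, total RNA was taken after control siRNA or siRNAs to TNRC6A and TNRC6B, the adaptors between Argonaute and Ccr4-Not, 2 libraries in each group. RNA bound by IgG beads is not analysed here, so enrichment is relative to total RNA only.

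Libraries held 15.4 to 46 M counts, and single mRNAs of the 40 ranged from 39 counts for ATP5D to 47837 for ATP5B. Levels below are CPM, the counts of a gene scaled to a common library size with TMM factors, and a difference is a log2 ratio with its standard error (SE). A gene is called when the Benjamini-Hochberg adjusted p of edgeR's quasi-likelihood test over all genes is below 0.05. Nothing in the labels says that libraries of a group came from separate cultures, so these p-values measure the spread between the libraries. CPM are shares of a library, and in bulk RNA a change in a subset of cells cannot be told apart from a change in RNA per cell. DDX6 mRNA itself stood at 404 to 615 CPM in the DDX6 IP and 166 to 177 in total RNA, and EIF4A2 at 851 to 1130 in its IP and 375 to 420 in total RNA. The EIF4A1 row is nearly empty, at 1.31 to 15.4 CPM, and overlaps a readthrough gene, so its level cannot be read. Levels of DDX6 and EIF4A2 mRNA in the other IPs are not given here, so these values do not test the specificity of an IP.

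The siRNA labels held for the input and subpolysomal libraries. CNOT1 stood at 627 to 711 CPM in control inputs and at 36.8 to 41.4 after CNOT1 siRNA. TNRC6A stood at 178 and 188 CPM with control siRNA and at 40.5 and 64.7 after TNRC6A/B siRNA. Levels of TNRC6B are not given here, so its knockdown is not shown. Of the polysomal libraries, the library labelled control siRNA polysomal replicate 3 had 28.3 CPM of CNOT1 where the other 3 control libraries had 470 to 500. In the CNOT1 siRNA group, the polysomal library labelled replicate 3 had 631 CPM where the other 3 had 24 to 31.6. Both therefore go against their labels, and polysomal results of the 40 mRNAs are given with all libraries as labelled and again without these 2.

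The promoters were searched for 2 short motifs. RefSeq promoter windows of GRCh38.p14, from 250 bases before to 50 after the start, were matched for 32 of the genes. The ETS core CCGGAAG, searched on both strands, was in 14 of the 32 windows (43.8%), against 18.1% of the 11100 promoters of tested genes. The core of NRF1, a regulator of nuclear genes for respiration, was in 2 of the 32 (6.25%), against 2.18%. The windows below are a selection from those 14 genes, made after values were seen. They lie wholly before the start and belong to mRNAs that are called in the IP comparisons below, in either direction. Capitals mark the ETS core, and CTTCCGG is the same core on the other strand.
UQCRQ, chr5:132866578-132866607, plus strand, core at -54: atggtatctcCCGGAAGttacctcacgacc
UQCR11, chr19:1605560-1605589, minus strand, core at -117: ccaaccctcgCCGGAAGttactgtaagtgg
COX5B, chr2:97646015-97646044, plus strand, core at -37: aagcccgcccCCGGAAGtccctcctgtctc
ATP5J, chr21:25735065-25735094, minus strand, core at -30: gccaggggacCCGGAAGcacttaccctcca
SDHB, chr1:17054141-17054170, minus strand, core at -128: acccgggaaaCCGGAAGccgcctcccactt
ATP5H, chr17:75047051-75047080, minus strand, core at -101: cgggaagataCTTCCGGaaccagccctcat
These are matches of letters in a window and are given as a description. By that selection, UQCRQ, UQCR11 and ATP5J were called higher in the DDX6 IP below, calls that rest on single libraries. COX5B, SDHB and ATP5H were lower in the eIF4A1 and eIF4A2 IPs, and ATP5H was lower in the DDX6 IP too. A relation of the motif to the IPs was not tested.

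In annotated transcript structure the 40 mRNAs were compact. Lengths are those of a single annotated coding transcript per gene, and which transcript these cells express was not examined. Their median coding region was 400 nt, against 1431 nt over the 13691 tested genes with a coding transcript in GENCODE on GRCh37. The median 5′UTR was 59 nt against 145, the median 3′UTR 355 nt against 1332, and the whole mRNA 1111 nt against 3398. The shortest coding regions were those of ATP5E, the epsilon subunit of the ATP synthase (156 nt), and UQCR11, a small complex III subunit (171 nt). The longest were those of SDHA, the flavoprotein of complex II (1995 nt), ATP5A1 and ATP5B, the alpha and beta subunits of the ATP synthase (1662 and 1590 nt), and UQCRC1, a core protein of complex III (1443 nt). In GRCh37, ATP5E lies at chr20:57600530-57607400 on the minus strand, UQCR11 at chr19:1597168-1605472 on the minus strand, ATP5B at chr12:57031959-57039768 on the minus strand and UQCRC1 at chr3:48636435-48648409 on the minus strand. Since 28 of the 40 genes have pseudogene-named rows of their own (108 rows), reads may be split between copies. Those rows took at most 7.96% of a gene's reads, for SDHA, with a median of 0.001465%.

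**Figure D1:**
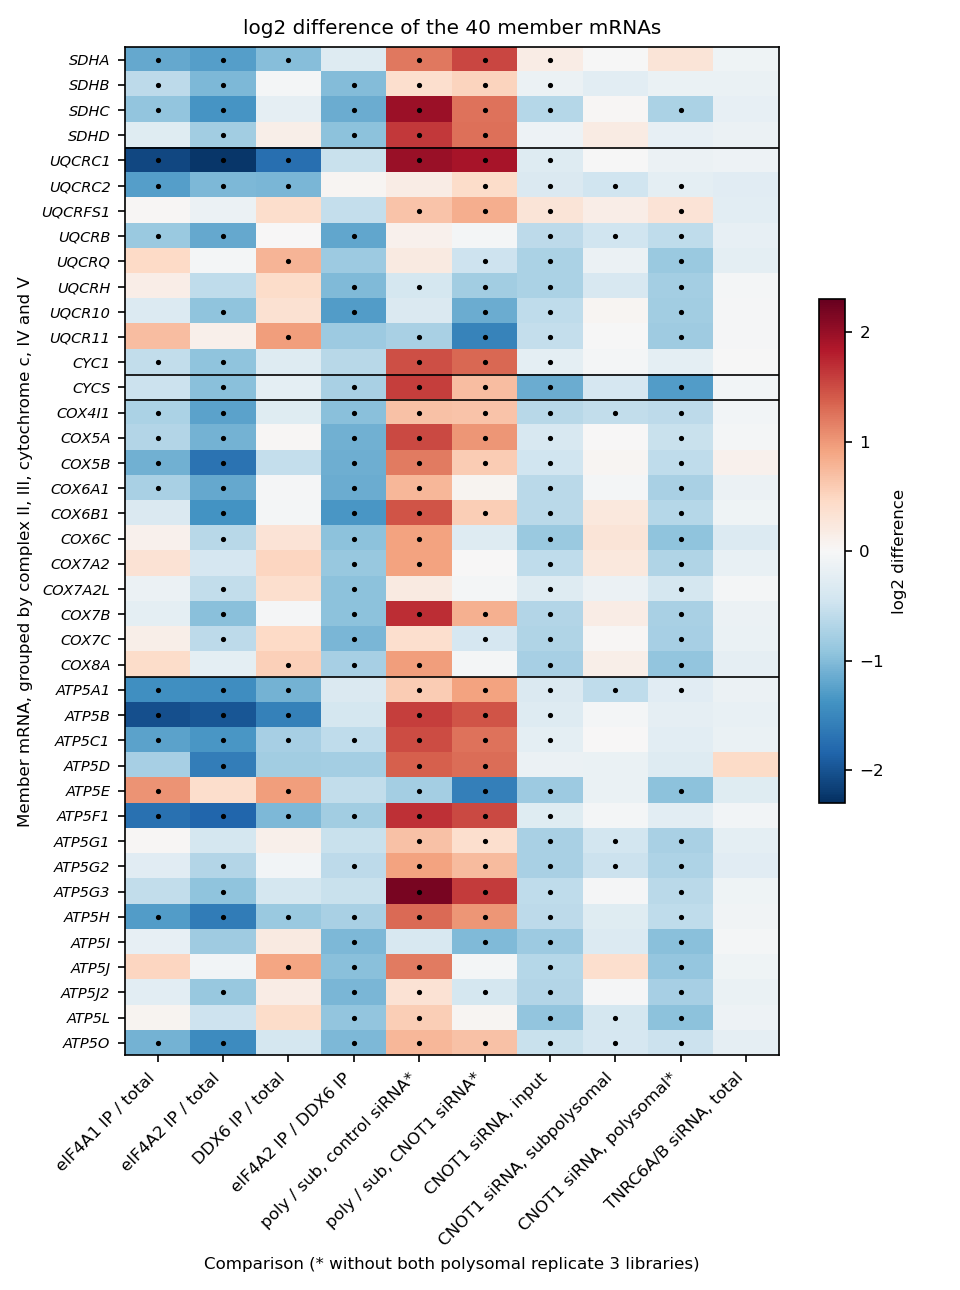
log2 differences of the 40 mRNAs (rows, grouped by complex II, III, cytochrome c, IV and V) in 10 comparisons (columns), from blue for lower to red for higher, with a dot where the adjusted p was below 0.05. Columns marked with an asterisk leave out both polysomal libraries of replicate 3. The eIF4A2 IP columns and the CNOT1 siRNA input column are blue almost throughout. The columns of polysomal against subpolysomal RNA are mostly red, and the CNOT1 siRNA polysomal column is mostly blue. The TNRC6A/B column carries no dot.

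The first question was which of these mRNAs were recovered with eIF4A1. Against total RNA, 17 of the 40 were lower in the eIF4A1 IP and 1 was higher, with a median difference of -0.41 against 0.04 for all genes tested. Over all genes 26.5% were lower and 26.1% higher in the same comparison. Scaled by library totals alone, which moved the median of all genes to 0.29, 14 of the 40 were lower and 6 higher, where all genes gave 17.8% lower and 36.9% higher. The lower mRNAs comprised 3 of 4 for complex II, 4 of 9 for complex III, 4 of 11 for complex IV and 6 of 15 for complex V.

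UQCRC1 had 234, 240 and 146 CPM in the 3 total RNA libraries and 48.3, 52.2 and 44.8 in the 3 eIF4A1 IP libraries. The lowest total RNA value was well above every IP value, and the difference was -2.09 ± 0.20 (SE; adjusted p = 4.64e-06 by edgeR). ATP5B, the catalytic beta subunit of the ATP synthase, had 1120, 1210 and 898 CPM in total RNA. In the eIF4A1 IP it had 258, 274 and 262 CPM, again without overlap, a difference of -2.03 ± 0.16 (adjusted p = 1.27e-06 by edgeR). ATP5F1, the subunit b of the peripheral stalk, went from 376, 400 and 293 CPM to 94.8, 121 and 108. It differed by -1.72 ± 0.16 (adjusted p = 2.88e-06 by edgeR). Other lower mRNAs were ATP5A1 at -1.41, ATP5H, another stalk subunit, at -1.28, UQCRC2, the second core protein, at -1.27 and SDHA at -1.17.

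ATP5E was the one mRNA that was higher. It had 228, 217 and 146 CPM in total RNA and 376, 547 and 293 in the eIF4A1 IP. The groups did not overlap, and the difference was 1.04 ± 0.32 (adjusted p = 0.0148 by edgeR). This call rests on single libraries: without RIP total RNA replicate 3 the difference was 0.86 (adjusted p = 0.0673 by edgeR), and without eIF4A1 IP replicate 2 it was 0.76 (adjusted p = 0.0855 by edgeR). UQCR11, at 0.71 ± 0.31, came next in size and was not called (adjusted p = 0.0648 by edgeR).

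With eIF4A2 the depletion was broader. Of the 40 mRNAs 29 were lower than in total RNA and 0 were higher, and 31 had an unadjusted p below 0.05, as did 56.6% of all genes. Over all genes 25.8% were lower and 24.5% higher, and the medians were -0.95 for the 40 mRNAs and 0.01 for all genes. All 4 complex II mRNAs were lower, 5 of 9 for complex III, CYCS, 9 of 11 for complex IV and 10 of 15 for complex V.

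UQCRC1 was again the furthest from total RNA, with 38.5, 39 and 53.3 CPM in the eIF4A2 IP, a difference of -2.24 ± 0.20 (adjusted p = 2.5e-06 by edgeR). ATP5B had 275, 242 and 315 CPM, a difference of -1.96 ± 0.16 (adjusted p = 1.03e-06 by edgeR). ATP5F1 had 104, 103 and 93.1 CPM, a difference of -1.83 ± 0.16 (adjusted p = 1.61e-06 by edgeR). For UQCRC1, ATP5B and ATP5F1 the total RNA values lay above every value of the eIF4A1 and eIF4A2 IPs. COX5B, a peripheral subunit of cytochrome oxidase, had 112, 105 and 62.8 CPM in total RNA and 27.6, 30.4 and 28.9 in the eIF4A2 IP, a difference of -1.69 ± 0.24 (adjusted p = 6.84e-05 by edgeR). CYCS, cytochrome c itself, had 415, 538 and 410 CPM in total RNA against 209, 295 and 189, a difference of -0.97 ± 0.23 (adjusted p = 0.00297 by edgeR). The 11 mRNAs that were not called ran from -0.82 for ATP5I, the subunit e of the membrane part of the ATP synthase, to 0.40 for ATP5E. UQCRH, the complex III hinge protein, was among them at -0.59 ± 0.24 (adjusted p = 0.0538 by edgeR).

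In the DDX6 IP the 40 mRNAs went both ways. Of them 8 were lower and 5 higher than in total RNA, and over all genes 23.3% were lower and 22.7% higher. The medians, -0.03 for the 40 mRNAs and 0.01 for all genes, lay close together. RIP libraries with the same replicate number deviated together, and with the replicate number as a block 12 were lower and 12 higher, where all genes gave 30.4% lower and 29.6% higher. Library totals alone gave 8 lower and 12 higher, where all genes gave 17.1% lower and 28.9% higher.

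The lower mRNAs again included UQCRC1 and ATP5B. UQCRC1 had 65.5, 68.9 and 52.7 CPM in the DDX6 IP, a difference of -1.73 ± 0.20 (adjusted p = 3.56e-05 by edgeR). ATP5B had 378, 378 and 344 CPM, a difference of -1.55 ± 0.15 (adjusted p = 1.49e-05 by edgeR). ATP5A1 had 606, 603 and 460 CPM in total RNA and 272, 264 and 256 in the DDX6 IP, a difference of -1.08 ± 0.14 (adjusted p = 6.55e-05 by edgeR). None of the 3 overlapped between the groups. The other lower mRNAs were UQCRC2, ATP5F1, SDHA, ATP5H and ATP5C1, the gamma subunit, at -1.06, -1.03, -0.98, -0.86 and -0.76.

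The 5 higher mRNAs all encode small subunits. UQCR11 had 155, 158 and 107 CPM in total RNA and 221, 379 and 216 in the DDX6 IP, a difference of 0.96 ± 0.31 (adjusted p = 0.0207 by edgeR). ATP5E had 287, 582 and 281 CPM in the DDX6 IP, a difference of 0.96 ± 0.32 (adjusted p = 0.0252 by edgeR). ATP5J, the coupling factor 6 of the ATP synthase stalk, had 151, 159 and 118 CPM in total RNA and 227, 372 and 207 in the DDX6 IP, a difference of 0.91 ± 0.28 (adjusted p = 0.016 by edgeR). In each case replicate 2 of the DDX6 IP stood far above the other IP libraries, and replicate 3 of total RNA was the lowest total RNA library. UQCRQ, a small complex III subunit, and COX8A, a small oxidase subunit, were called at 0.79 (adjusted p = 0.0462 by edgeR) and 0.55 (adjusted p = 0.0439 by edgeR). Without RIP total RNA replicate 3 none of the 5 was called, and without DDX6 IP replicate 2 none was called either (for ATP5E, 0.78 and 0.53 on the log2 scale).

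**Figure D2:**
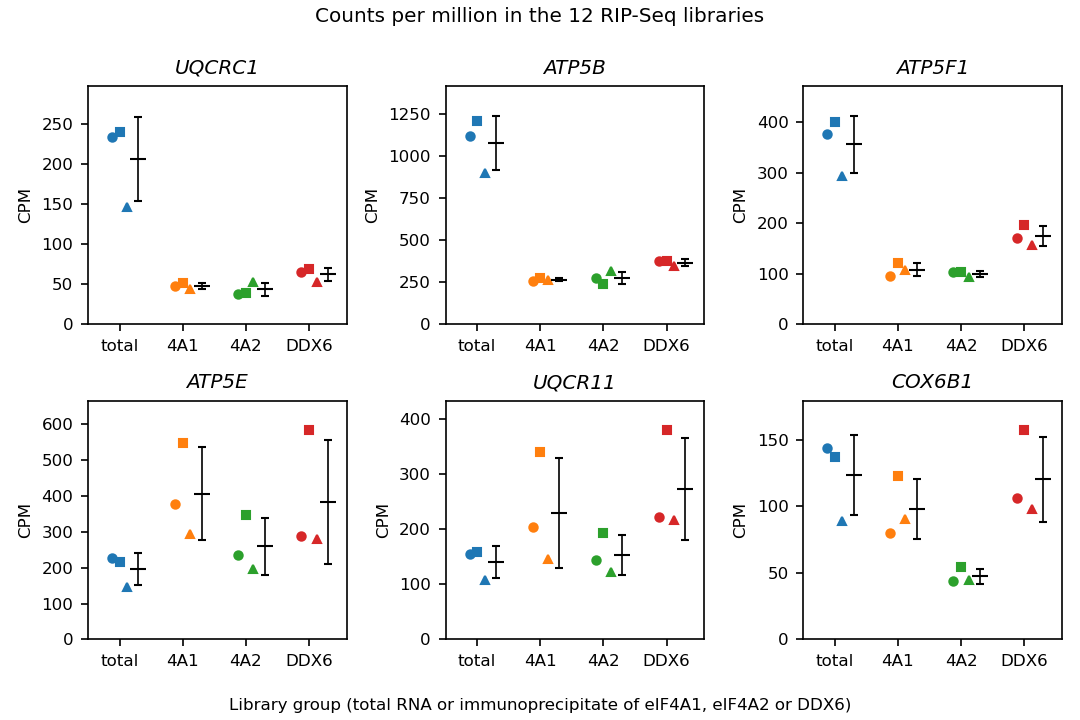
CPM of 6 mRNAs in the 12 RIP-Seq libraries: total RNA and the eIF4A1 (4A1), eIF4A2 (4A2) and DDX6 IP, with circles, squares and triangles for replicates 1, 2 and 3 and a bar for the mean ± SD of 3 libraries. UQCRC1, ATP5B and ATP5F1 lie lower in every IP than in any total RNA library, ATP5E and UQCR11 spread widely in the eIF4A1 and DDX6 IP with replicate 2 highest, and COX6B1 is lowest in the eIF4A2 IP.

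The IPs were next set against each other, which removes total RNA from the ratio. Between eIF4A2 and eIF4A1, COX6B1, a peripheral subunit of cytochrome oxidase, was the only one of the 40 that was called. It had 80.2, 123 and 90.3 CPM in the eIF4A1 IP and 43.6, 54.1 and 44.7 in the eIF4A2 IP, without overlap. The difference was -1.04 ± 0.23 (adjusted p = 0.0494 by edgeR), just inside the threshold, and it was not called when any of 5 of the 6 libraries was left out. Over all genes 0.0858% were lower and 0.973% higher in this comparison. Without a correction for the number of genes 18 of the 40 had p below 0.05, as did 17.8% of all genes. The median was -0.46 against -0.02 for all genes, and 2 of the 40 differences were above 0, ATP5B at 0.07 and UQCRC2 at 0.24, as were 47.2% of all genes. With the replicate block 23 of the 40 were lower and 0 higher, where all genes gave 8.7% lower and 7.12% higher. Those 23 comprised COX6B1 at -1.03 ± 0.15 (adjusted p = 0.00173 by edgeR), COX7B at -0.74, UQCRH at -0.73, COX7C at -0.72 and COX6C at -0.71 among others.

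Between eIF4A2 and DDX6 27 of the 40 were lower with eIF4A2 and 0 were higher, against 11.3% lower and 9.82% higher over all genes. The medians were -0.89 for the 40 mRNAs and 0 for all genes. All 11 complex IV mRNAs were lower, from -0.77 for COX8A to -1.34 for COX6B1. Complex II gave 3 of 4, complex III 3 of 9, complex V 9 of 15, and CYCS was also lower.

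COX6B1 had 106, 157 and 97.7 CPM in the DDX6 IP, so that every value was above every eIF4A2 value, and the difference was -1.34 ± 0.23 (adjusted p = 0.00323 by edgeR). UQCR10, a small subunit of complex III, had 141, 226 and 145 CPM with DDX6 and 59.1, 84.7 and 66.2 with eIF4A2, a difference of -1.29 ± 0.25 (adjusted p = 0.005 by edgeR). UQCRB, which binds ubiquinone in complex III, had 181, 268 and 178 CPM with DDX6 and 88.4, 107 and 79.2 with eIF4A2. It differed by -1.19 ± 0.22 (adjusted p = 0.00433 by edgeR). Without eIF4A2 IP replicate 1, and likewise without DDX6 IP replicate 2, only 15 of the 40 were called, none of them in the other direction. Shares of all genes in these fits are not given here, so the 15 describe the processing and are not a result about the 40 mRNAs.

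Between DDX6 and eIF4A1 edgeR called 0 of the 40, with 0.0801% of all genes higher and 0.0114% lower. Without the correction 16 had p below 0.05, as did 14% of all genes. DESeq2 called 6, all higher, where it called 2.9% of all genes higher and 1.47% lower. Of the 40 differences 38 were above 0, as were 49% of all genes, with a median of 0.37 against -0.01. With the replicate block 15 were higher and 0 lower, where all genes gave 6.08% higher and 3.82% lower. UQCRB had the largest of these blocked differences, 0.85 ± 0.13 (adjusted p = 0.0068 by edgeR). The 3 comparisons of this kind share libraries with each other and with those against total RNA, and their values stand side by side for that reason only.

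The differences were then set against the length of the coding region. Against total RNA, Pearson's r between the log2 difference and the log2 coding length over the 40 mRNAs was -0.79 for eIF4A1, -0.61 for eIF4A2 and -0.82 for DDX6. Over the 13691 genes it was -0.17, 0.00 and -0.26. With the length of the whole annotated mRNA the relation was weaker, with r of -0.25, -0.09 and -0.26 over the 40 mRNAs in the same order. These are descriptions over mRNAs that share the same libraries, and the part of length in the differences was not tested. Divided at 500 nt, a limit that was chosen after values were seen, 26 mRNAs had a shorter coding region and 14 one as long or longer. Shorter and longer refer here and below to the coding region alone. The whole annotated mRNA of ATP5E, with 3610 nt, is longer than that of UQCRC1, with 1595 nt. In the eIF4A1 IP 12 of the 14 longer and 5 of the 26 shorter mRNAs were lower, where 29.9% and 12.8% of all genes of these classes were lower. In the eIF4A2 IP 13 of 14 and 16 of 26 were lower, against 29.7% and 25.7% of all genes. In the DDX6 IP 7 of 14 and 1 of 26 were lower, against 25.5% and 6.41%. The 5 mRNAs that were higher with DDX6 were among the 26 shorter ones, of which class 44.1% of all genes were higher.

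The sign of r was positive when eIF4A2 was set against the other helicases. For eIF4A2 against eIF4A1 r was 0.82 over the 40 mRNAs and 0.38 over all genes, and the median was -0.56 for the shorter mRNAs and -0.16 for the longer ones. For eIF4A2 against DDX6 r was 0.63 and 0.38. Here 21 of 26 shorter and 6 of 14 longer mRNAs were lower, where 41.3% and 11.3% of all genes of these classes were lower. With whole mRNA length r over the 40 mRNAs was 0.50 against eIF4A1 and 0.40 against DDX6.

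**Figure D3:**
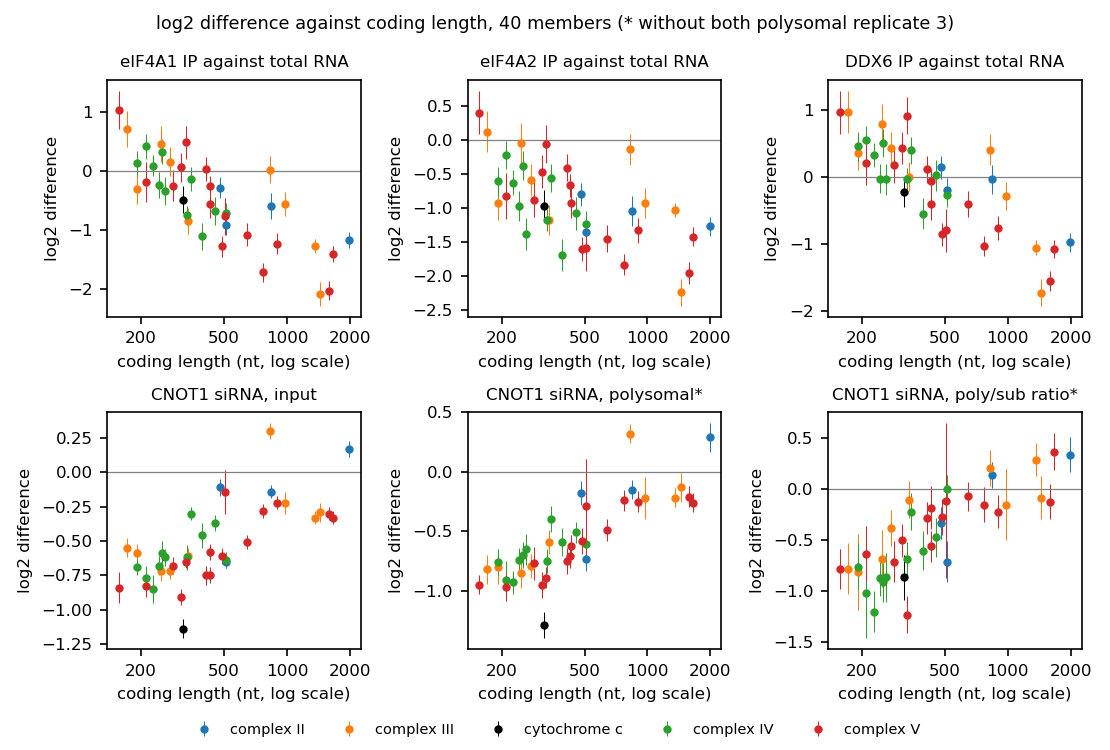
log2 difference ± SE of each of the 40 mRNAs (points, coloured by complex) against its coding length on a log axis, for the 3 IPs against total RNA and for CNOT1 siRNA in input, polysomal RNA and the polysomal to subpolysomal ratio. Points fall from left to right in the upper panels (r of -0.79, -0.61 and -0.82) and climb from left to right in the lower ones (0.71, 0.82 and 0.82), where the polysomal and ratio panels leave out both polysomal libraries of replicate 3 (with them r was 0.85 and 0.70). With whole mRNA length, not drawn, r was -0.25, -0.09 and -0.26 for the upper panels and 0.27, 0.31 and 0.40 for the lower ones.

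The gradients tell where these mRNAs sat among ribosomes. With control siRNA 21 of the 40 had a higher level in polysomal than in subpolysomal RNA and 3 a lower one, with a median difference of 0.67 against -0.06 for all genes. Over all genes 30.3% were higher and 34.9% lower. Without both polysomal libraries of replicate 3, 30 were higher and 3 lower, the median was 0.92, and all genes gave 31% higher and 36.8% lower. Complex II gave 4 of 4 higher in that setting, complex III 3 of 9, CYCS, complex IV 9 of 11 and complex V 13 of 15.

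ATP5G3, 1 of 3 genes that encode the same mature membrane subunit c of the ATP synthase, had 86.1, 103, 86.5 and 86.8 CPM in the subpolysomal libraries with control siRNA. Its polysomal values were 408, 457, 200 and 388 CPM, the lowest being the library labelled replicate 3. All 4 were above every subpolysomal value, and the difference was 1.94 ± 0.24 (adjusted p = 3.11e-05 by edgeR), or 2.18 ± 0.11 without the 2 libraries. ATP5G2, which encodes the same mature protein from another precursor, differed by 0.69 (adjusted p = 0.0295 by edgeR), or 0.93 without the 2 libraries. The third, ATP5G1, differed by 0.42 and was not called with all libraries (adjusted p = 0.154 by edgeR), and by 0.67 (adjusted p = 0.000243 by edgeR) without the 2.

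UQCRC1 had 49.4, 50, 67 and 68 CPM in subpolysomal and 274, 245, 200 and 195 in polysomal RNA. The groups lay far apart, with a difference of 1.88 ± 0.18 (adjusted p = 6.49e-06 by edgeR), or 1.99 ± 0.17 without the 2 libraries. SDHC, a membrane anchor of complex II, had 52.4, 64.8, 46.6 and 45.4 CPM in subpolysomal RNA. In polysomal RNA it had 198, 234, 96.7 and 194 CPM, a difference of 1.73 ± 0.25 (adjusted p = 0.000104 by edgeR), or 1.97 ± 0.13 without the 2 libraries. The library labelled replicate 3 was nearest to the subpolysomal values.

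The 3 lower mRNAs were small subunits. ATP5E had 279, 306, 422 and 275 CPM in subpolysomal and 187, 192, 56.8 and 191 in polysomal RNA, a difference of -1.10 ± 0.34 (adjusted p = 0.0142 by edgeR). UQCR11 had 81.3, 104, 160 and 105 CPM against 79.8, 68.1, 28.8 and 60.4, a difference of -1.0 ± 0.31 (adjusted p = 0.0136 by edgeR). UQCRH had 789, 843, 1000 and 760 CPM against 620, 702, 292 and 647, a difference of -0.65 ± 0.26 (adjusted p = 0.0424 by edgeR). None of the 3 overlapped between fractions, although in all of them the library labelled polysomal replicate 3 was far the lowest. Without the 2 libraries the differences were -0.79, -0.74 and -0.40, each still called. UQCRH was near the threshold, and was not called with RLE factors (-0.58, adjusted p = 0.0532 by edgeR) or without any of 6 of the 8 single libraries.

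After CNOT1 siRNA 24 of the 40 were higher in polysomal RNA and 6 lower, with a median of 0.64 against -0.03, where all genes gave 32.1% higher and 34.4% lower. Without both polysomal libraries of replicate 3 these were 24 and 8, with a median of 0.58, and all genes gave 34.5% and 36.3%. UQCRC1 had 53.5, 48.4, 63.1 and 62.9 CPM in subpolysomal and 215, 241, 224 and 202 in polysomal RNA, a difference of 1.88 ± 0.12 (adjusted p = 1.04e-07 by edgeR). ATP5G3 had 86.9, 86.7, 95 and 80.9 CPM against 253, 299, 349 and 269, a difference of 1.67 ± 0.13 (adjusted p = 2.72e-07 by edgeR). ATP5F1 had 133, 132, 130 and 105 CPM against 345, 391, 410 and 369, a difference of 1.52 ± 0.12 (adjusted p = 3.39e-07 by edgeR). Polysomal values were above subpolysomal ones in every gradient for these 3, and without the 2 libraries the differences were 1.90, 1.6 and 1.51.

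The lower mRNAs were led by UQCR11, with 97.2, 103, 122 and 118 CPM in subpolysomal and 38.3, 43.9, 44.9 and 36.3 in polysomal RNA. Its difference was -1.50 ± 0.13 (adjusted p = 5.51e-07 by edgeR). ATP5E had 322, 310, 256 and 254 CPM against 88.7, 105, 137 and 103, a difference of -1.47 ± 0.15 (adjusted p = 2.47e-06 by edgeR). UQCR10 had 112, 100, 158 and 125 CPM against 57.2, 62.7, 64.8 and 53.8, a difference of -1.12 ± 0.14 (adjusted p = 1.67e-05 by edgeR). Without the 2 libraries these differences were -1.53, -1.58 and -1.14. All 14 mRNAs with a longer coding region were higher in polysomal RNA, as were 39.1% of all genes of that class. Of the 26 shorter ones 10 were higher and 6 lower, where all genes of that class gave 23.3% and 44%. Without the 2 libraries the shorter mRNAs gave 10 higher and 8 lower, against 24.8% and 46.7% of all genes of that class, and all 14 longer ones were higher, against 42.9%.

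The gradients were also compared one by one. The median polysomal over subpolysomal difference of the 40 mRNAs, less that of all genes, was 0.88, 0.99, -0.05 and 0.90 in the 4 control gradients. In the 4 CNOT1 siRNA gradients it was 0.41, 0.75, 0.76 and 0.60. The mean was 0.68 ± 0.49 (SD, n = 4) and 0.63 ± 0.16 (SD, n = 4). The control value of -0.05 and the CNOT1 siRNA value of 0.76, the highest of its group, both belong to gradients whose polysomal library goes against its label. Without these 2 gradients the mean was 0.93 ± 0.06 (SD, n = 3) with control siRNA and 0.59 ± 0.17 (SD, n = 3) with CNOT1 siRNA, and the groups did not overlap, a difference that was not tested here.

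**Figure D4:**
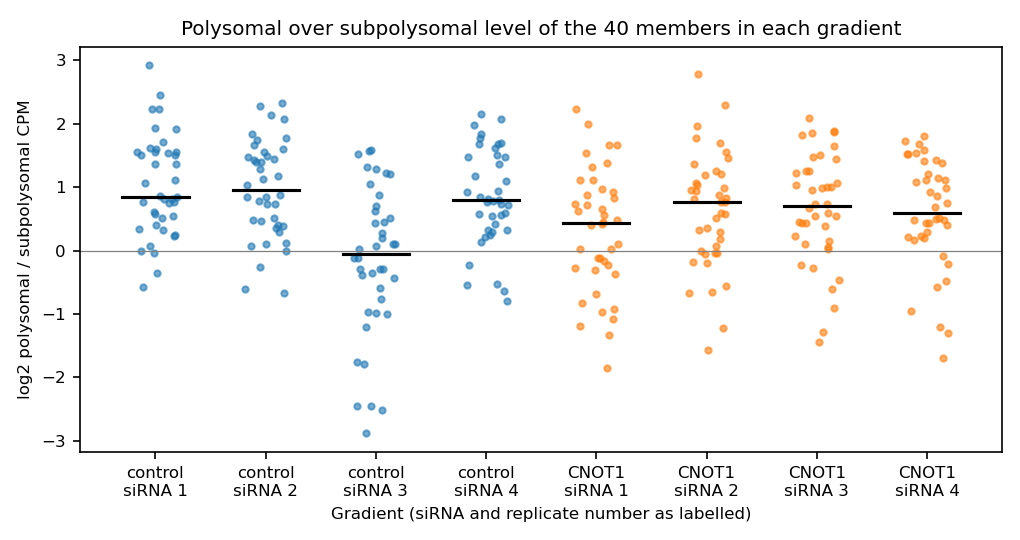
log2 ratio of polysomal to subpolysomal CPM for each of the 40 mRNAs (points) in the 8 gradients, 4 with control siRNA (blue) and 4 with CNOT1 siRNA (orange), with a bar at the median. Control gradients 1, 2 and 4 have medians of 0.85, 0.95 and 0.79 and gradient 3 has -0.05, while the CNOT1 siRNA gradients lie between 0.43 and 0.76.

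After CNOT1 siRNA nearly all of these mRNAs were lower in input RNA. Of the 40, 36 were lower and 2 higher, against 30% lower and 30.9% higher over all genes, and the medians were -0.60 and 0. All 11 complex IV mRNAs and 14 of 15 complex V mRNAs were lower, as were 8 of 9 for complex III, 2 of 4 for complex II and CYCS. For 36 of the 40 the 4 control and 4 CNOT1 siRNA libraries did not overlap, the exceptions being SDHA, SDHD, CYC1 and ATP5D, and over all genes 53.1% did not overlap.

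CYCS moved the most. It had 399, 396, 356 and 405 CPM in the control inputs and 198, 173, 159 and 169 after CNOT1 siRNA. Each knockdown value lay far below each control value, and the difference was -1.14 ± 0.07 (adjusted p = 4.84e-09 by edgeR), from a mean of 389 ± 22.1 to 175 ± 16.5 CPM (SD, n = 4). ATP5L, the subunit g of the ATP synthase membrane part, had 181, 171, 161 and 161 CPM and then 97.6, 88.9, 79.6 and 87.7, a difference of -0.91 ± 0.06 (adjusted p = 1.44e-08 by edgeR). COX6C, a small subunit of cytochrome oxidase, had 134, 122, 121 and 131 CPM and then 84.1, 53.4, 68.7 and 72.7. It differed by -0.85 ± 0.10 (adjusted p = 2.29e-06 by edgeR), again without overlap. ATP5E, at -0.84, ATP5I, at -0.83, and COX8A, at -0.77, came close behind.

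Both higher mRNAs have long coding regions. UQCRFS1, the Rieske iron-sulphur protein of complex III, had 104, 107, 93.6 and 101 CPM in control inputs and 125, 134, 113 and 122 after CNOT1 siRNA, without overlap. The difference was 0.30 ± 0.06 (adjusted p = 0.000436 by edgeR), and in a fit of all 24 gradient libraries it was 0.28 and not called (adjusted p = 0.0845 by edgeR). SDHA had 238, 220, 213 and 189 CPM and then 259, 240, 226 and 236, and the groups overlapped. Its difference of 0.17 ± 0.06 (adjusted p = 0.0252 by edgeR) was not called when any of 4 of the 8 libraries was left out. The 2 mRNAs that were not called were ATP5D, the delta subunit of the ATP synthase, at -0.14 and SDHD, the other membrane anchor of complex II, at -0.11. Within complex II the 4 mRNAs therefore spread from -0.65 for SDHC to 0.17 for SDHA. The trio that encodes subunit c fell together, by 0.75 for ATP5G1, 0.75 for ATP5G2 and 0.58 for ATP5G3 on the log2 scale.

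Pearson's r between the difference and the log2 coding length was 0.71 over the 40 mRNAs and 0.18 over all genes. With the length of the whole annotated mRNA it was 0.27 and 0.08. The median was -0.67 for the 26 shorter and -0.28 for the 14 longer mRNAs, where all genes of these length classes had -0.29 and 0.07. Of the shorter mRNAs 25 of 26 were lower, against 56.3% of all genes of that class. Of the longer ones 11 of 14 were lower and 2 higher, against 26.6% and 37.3%.

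**Figure D5:**
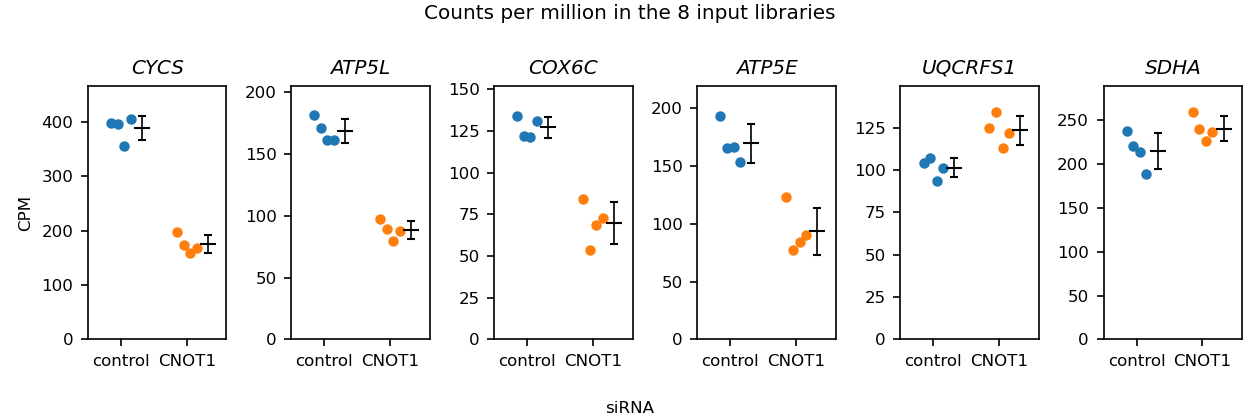
CPM of 6 mRNAs in the 8 input libraries, 4 with control siRNA and 4 with CNOT1 siRNA, each point a library and the bar the mean ± SD of 4. CYCS, ATP5L, COX6C and ATP5E lie lower in all 4 CNOT1 siRNA libraries than in any control library, UQCRFS1 lies higher, and the SDHA points of both groups overlap.

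In subpolysomal RNA CNOT1 siRNA gave a median of -0.04 for the 40 mRNAs and of -0.04 for all genes. Of the 40, 8 were lower and 0 higher, against 15.2% lower and 12.6% higher over all genes. Here too libraries with the same number deviated together, and with the replicate block 12 were lower and 5 higher, where all genes gave 31.2% lower and 27% higher. The direction of calls also depends on the scaling, since library totals alone moved the median of all genes to 0.21 and gave 2 lower and 6 higher, where all genes gave 6.28% and 27.1%. RLE factors gave 7 lower and 1 higher, against 13.2% and 13.8%.

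ATP5A1 had 380, 496, 319 and 363 CPM in the control and 254, 279, 241 and 237 in the CNOT1 siRNA subpolysomal libraries, a difference of -0.59 ± 0.13 (adjusted p = 0.0077 by edgeR). COX4I1, subunit IV of cytochrome oxidase, had 170, 177, 201 and 185 CPM and then 120, 118, 129 and 117, a difference of -0.57 ± 0.11 (adjusted p = 0.00389 by edgeR). Neither overlapped. ATP5G2 had 192, 205, 269 and 196 CPM and then 147, 128, 189 and 140, a difference of -0.49 ± 0.16 (adjusted p = 0.0456 by edgeR). It was not called with RLE factors (-0.45, adjusted p = 0.0539 by edgeR) or without any of 7 of the 8 single libraries. The other lower mRNAs were UQCRC2 at -0.46, UQCRB at -0.45, ATP5G1 at -0.43, ATP5L at -0.41 and ATP5O, the stalk subunit that confers oligomycin sensitivity, at -0.38. Under the block the 5 higher ones were ATP5J at 0.39, COX6C at 0.30, COX7A2 at 0.25, COX6B1 at 0.24 and SDHD at 0.19. With coding length r was -0.22 over the 40 mRNAs and 0.00 over all genes.

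In polysomal RNA, with all libraries as labelled, 0 of the 40 were called and 0 had an unadjusted p below 0.05, and DESeq2 likewise called 0. Over all genes edgeR called 0% higher and 0% lower, so the 0 calls are not particular to the 40 mRNAs. Shares of all genes at an unadjusted p and by DESeq2 are not given here. The 2 libraries that go against their labels are in that fit. Without them 30 of the 40 were lower after CNOT1 siRNA and 1 was higher, with a median of -0.64, where all genes gave 18.9% lower and 21.8% higher. All 11 complex IV mRNAs were lower, with 11 of 15 for complex V, 6 of 9 for complex III and 1 of 4 for complex II.

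CYCS had 573, 719, 193 and 585 polysomal CPM with control siRNA and 235, 271, 516 and 264 with CNOT1 siRNA, so the library labelled replicate 3 in each group took a value typical of the other group. Without those 2 the difference was -1.29 ± 0.11 (adjusted p = 8.14e-05 by edgeR), and the remaining 3 libraries of each group did not overlap. ATP5I, ATP5E, ATP5L and COX6C followed at -0.97, -0.95, -0.95 and -0.93. UQCRFS1, with 138, 155, 153 and 136 CPM and then 167, 188, 122 and 185, was the higher one at 0.32 ± 0.08 (adjusted p = 0.013 by edgeR). In this setting 25 of the 26 shorter and 5 of the 14 longer mRNAs were lower, where all genes of these classes gave 49.8% and 15.7%, and r with coding length was 0.82 over the 40 mRNAs and 0.26 over all genes.

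The change of the polysomal to subpolysomal ratio was tested as an interaction. With all libraries 0 of the 40 were called, 4 had an unadjusted p below 0.05 (15.1% of all genes) and DESeq2 called 0, where edgeR called 0.576% of all genes higher and 0.376% lower. Without both polysomal libraries of replicate 3, 11 of the 40 had a lower ratio after CNOT1 siRNA and 0 a higher one, against 3.97% lower and 5.47% higher over all genes, with a median of -0.43 for the 40. Of the 11, 10 had a coding region under 500 nt, a class in which 17.9% of all genes had a lower ratio, and 1 a longer one, a class with 3.75%.

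ATP5J had 89.5, 123, 114 and 87.9 CPM in the control and 127, 149, 131 and 120 in the CNOT1 siRNA subpolysomal libraries. In polysomal RNA it had 233, 253, 105 and 244 CPM with control siRNA and 118, 131, 209 and 148 with CNOT1 siRNA. Without the 2 libraries its ratio changed by -1.23 ± 0.18 (adjusted p = 0.00182 by edgeR), and with them by -0.81 ± 0.32 (adjusted p = 0.231 by edgeR). COX6C changed by -1.20 ± 0.20 (adjusted p = 0.00299 by edgeR) without the 2 libraries. The other 9 were COX7A2, COX7B, COX6B1, CYCS, ATP5E, ATP5J2, SDHC, COX6A1 and ATP5G3, from -0.91 for COX7A2 to -0.56 for ATP5G3. ATP5J2, subunit f of the ATP synthase, overlaps a readthrough gene with its own row, so its counts are uncertain. Of the 11, 5 belong to complex IV, 4 to complex V, 1 to complex II and 1 is CYCS, and no complex III mRNA was called.

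TNRC6A/B siRNA gave no call among the 40, with 0 by edgeR, 0 at an unadjusted p below 0.05 and 0 by DESeq2. Over all genes edgeR called 0% in each direction, so the absence of calls is not particular to the 40 mRNAs. Shares of all genes by the other criteria are not given here. With 2 libraries a group, the libraries of each group differed widely. The median was -0.13 against -0.03 for all genes, with values from -0.32 ± 0.34 for COX6C to 0.44 ± 1.03 for ATP5D. COX6C had 72.3 and 108 CPM with control siRNA and 56.1 and 88.7 after TNRC6A/B siRNA, which overlap. Each TNRC6A/B siRNA value was nevertheless below the control value of the same replicate number. Same-number libraries deviated together in this experiment (r of 0.862, a single value since with 2 libraries a group the deviations mirror each other). CYCS had 158 and 317 CPM and then 153 and 303, a difference of -0.06 ± 0.48. The spread between the 2 libraries of a group limits what could be detected.

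The other mRNAs of the respiratory chain give the setting. Of 37 complex I subunit mRNAs, which were chosen as the nearest group, 21 were lower and 1 higher in the eIF4A1 IP, 30 and 0 in the eIF4A2 IP, and 9 and 5 in the DDX6 IP. In CNOT1 siRNA input 27 of the 37 were lower and 0 higher, and between fractions with control siRNA, libraries as labelled, 22 were higher in polysomal RNA and 5 lower. Of 35 assembly factor mRNAs of complexes II to V, for proteins that build but do not belong to the complexes, 13 were higher and 7 lower with eIF4A1, 4 and 13 with eIF4A2, 14 and 4 with DDX6, and 7 and 15 in CNOT1 siRNA input. Over all genes the shares higher and lower were 26.1% and 26.5%, 24.5% and 25.8%, 22.7% and 23.3%, and 30.9% and 30% in the same order. Between fractions with control siRNA, libraries as labelled, they were 30.3% and 34.9%. That fit holds the polysomal library of replicate 3 that goes against its label, and these lists are not given without it. No test of the difference between these groups and the 40 mRNAs was made. The mRNAs for subunits encoded in mitochondrial DNA, which are made and translated inside the organelle, were lower in all 3 IPs, 5 of 5 tested each time, with median differences of -4.77, -3.07 and -4.46. All 6 tested were lower in polysomal than in subpolysomal RNA with control siRNA, libraries as labelled, with a median of -5.56. The sizes are imprecise: for the 5 in the IPs, DESeq2 gave SEs of 0.52 to 0.93 against total RNA. Between DDX6 and eIF4A1 DESeq2 gave none of these 5 an adjusted p, and their levels in CPM are not given here.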

How the data were processed

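The deposited files hold counts, 1 integer per gene symbol and library, which the authors made from stranded poly(A) libraries by TopHat2 alignment to hg19 and HTSeq. Per the submitters' processing notes bcl2fastq 2.0 wrote the reads, and the strand option of the counter is not given in the sources used here. A deposited table of the authors' own tests (log2 fold changes, p-values) was not used.

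The 40 mRNAs, the other gene lists and the comparisons were chosen with earlier results of these data known. Counts were analysed in R 4.3.3 with edgeR 4.0.16: filterByExpr, TMM factors and the quasi-likelihood test, all 12 RIP libraries in 1 fit and otherwise the groups compared. The per-gradient ratio used a pseudocount of 0.5 CPM. For each comparison the 3 called mRNAs with the largest rise and fall and at least 10 CPM were given in full; other mRNAs were selected after their values were seen. The pipeline was tested on simulated data. Same-number libraries correlated at 0.184 to 0.782 over 18 RIP pairs, 0.195 to 0.358 for input and 0.586 to 0.736 for subpolysomal RNA. Alternatives were RLE factors, library totals, no filter, DESeq2 1.42.0, the replicate block, other fits and leaving out libraries. The description of RIP total RNA replicate 3 names replicate 2, and the title was followed.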

Additional observations from a re-analysis of the deposited data

Results flagged for a closer look

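In 2 measures the library labelled control siRNA polysomal replicate 3 stood beyond Dixon's limit for 4 libraries, which chance exceeds in about 1 group of 20. The 40 mRNAs took 0.59% of its counts, with a gap of 0.845 of the range of the group. The median polysome association of the 40 mRNAs in its gradient was -0.05, with a gap of 0.894 of the range. CNOT1 counts of that library go against its label. Tested for each mRNA, the 6 gradient groups had 1 to 5 of the 40 mRNAs beyond the same limit.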

How the results depend on the processing

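Counts of called mRNAs changed by more than 1.5 times as follows. Where no share of all genes is given for a setting, its count describes the processing and is not a result about the 40 mRNAs. With the replicate block the calls were 24 for DDX6 against total RNA, 23 for eIF4A2 against eIF4A1, 15 for DDX6 against eIF4A1 and 17 for CNOT1 siRNA in subpolysomal RNA, and no other blocked count moved that far. The 2 same-number TNRC6 pairs give a single value of r, 0.862, because with 2 libraries a group the deviations mirror each other. For the TNRC6, polysomal and between-fraction comparisons the labels give a shared number and say no more about pairing. The per-gradient ratios joined polysomal and subpolysomal libraries by that number. With the block 20 were called between fractions with control siRNA and 29 with CNOT1 siRNA. The block gave 0 in polysomal RNA, for the ratio and for TNRC6A/B siRNA. Library totals gave 20 for DDX6 against total RNA and 1 for the change of the polysomal ratio. Without the filter the calls were 14 for eIF4A2 against eIF4A1, 5 for DDX6 against eIF4A1, 3 in subpolysomal RNA and 2 for the ratio. DESeq2 called 3 for eIF4A2 against eIF4A1 and 6 for DDX6 against eIF4A1, and for the former RLE factors and a fit of the compared libraries alone each called 0. Without both polysomal libraries of replicate 3, 31 were called in polysomal RNA and 11 for the ratio. The cause was not tested. Leaving out single libraries gave 15 to 20 calls for eIF4A1, 26 to 32 for eIF4A2 and 10 to 14 for DDX6 against total RNA, 0 to 1 for eIF4A2 against eIF4A1, 15 to 28 for eIF4A2 against DDX6, 36 to 38 in input, 3 to 8 in subpolysomal RNA and 0 to 2 for the ratio. It gave 0 throughout for DDX6 against eIF4A1, polysomal RNA and TNRC6A/B siRNA. Without the library labelled control polysomal replicate 3, 33 were called between fractions with control siRNA (lowest 21), and with CNOT1 siRNA 28 to 32. The 3 subpolysomal calls came without control replicate 1, and 5 each without control replicate 2 or CNOT1 siRNA replicate 4. Of 496 alternative values for 37 named results, 456 kept direction and call, 40 lost the call and 0 reversed. Depth limits ATP5D most.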

Other observations

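The 40 mRNAs together took 0.758% of the counts in RIP total RNA, 0.649% in the eIF4A1 IP, 0.491% in the eIF4A2 IP and 0.755% in the DDX6 IP, as means over 3 libraries. In the gradient experiment they took 0.734% of input counts with control siRNA and 0.556% with CNOT1 siRNA, as means over 4 libraries. In polysomal RNA, libraries as labelled, the means were 0.873% and 0.744%, and without both libraries of replicate 3 they were 0.968% and 0.706% over 3 libraries. In subpolysomal RNA the means were 0.575% and 0.603%. Of 13 regulators of mitochondrial biogenesis 12 were tested in CNOT1 siRNA input, where 6 were higher and 1 lower, against 30.9% and 30% of all genes. Of 4 additional components and regulators of the ATP synthase, all 4 were lower there.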
